A study of Mus musculus with 3 samples.

Results

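The 10 genes described here encode subunits of the MLL (KMT2A) histone methyltransferase complex, the super elongation complex and the DOT1L complex: Kmt2a, Men1, Psip1, Mllt1, Mllt3, Aff1, Aff4, Ell, Dot1l and Mllt10. They were taken by symbol from the 32285 genes of the count matrices, and all 10 had UMIs in each library. The rule itself uses no measured value, but the members were chosen with earlier results of these data known. A UMI is a tag that marks 1 captured RNA molecule. The study read RNA and antibody tags from the same single cells (CITE-seq). The cells were sorted as Lin-KIT+, that is without lineage markers and with the receptor KIT, from livers of mice at postnatal day 0, a stage at which the liver still makes blood. There were 3 groups of 1 library each: mice with the leukaemia fusion MLL-ENL and a deletion of Skida1, mice with MLL-ENL, and Control mice. Every animal was thus of the same age and every library from the same sort gate. The sources used here do not give the allele or promoter that expresses the fusion, the agent that deleted Skida1, the genotype of the Control mice, the number of pooled animals or their sex.

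MLL is a large nuclear protein that methylates lysine 4 of histone H3 and keeps Hox and other developmental genes active in blood stem cells. Menin (from Men1) and LEDGF (from Psip1) tether it to chromatin. In leukaemia a chromosome break joins the front part of MLL to a partner, most often a protein of the super elongation complex or of the DOT1L complex. ENL (from Mllt1) and AF9 (from Mllt3) read acylated histones and bind both complexes. AF4 (from Aff1) and AFF4 are scaffolds that bring the kinase P-TEFb to paused RNA polymerase II, ELL is an elongation factor, DOT1L methylates lysine 79 of histone H3, and AF10 (from Mllt10) is its cofactor. In normal blood formation Kmt2a, Men1 and Mllt3 are known for roles in stem cell maintenance, and MLLT3 in human cells also for red cell and platelet lineages.

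All 3 matrices were sequenced to between 180656900 and 207395090 gene UMIs, over 10543 barcodes in the Skida1-deleted library, 11910 in MLL-ENL and 6091 in Control. After filtering and removal of doublets 9168 Skida1-deleted, 10154 MLL-ENL and 5510 Control cells were kept, with medians of 17025.5, 14685.5 and 28501 UMIs per cell in that order. Kit, the sorted surface receptor, was at 228, 199 and 187 CPM, the UMIs of a gene scaled to 1000000 gene UMIs, and Ptprc (CD45), the blood cell marker, at 47.3, 45 and 36.2 CPM. Clusters of cells were named after their leading marker genes, and 5 classes had at least 100 cells in every library. These were cells like hematopoietic stem and progenitor cells (HSPC-like, 2377 Skida1-deleted, 1762 MLL-ENL and 1214 Control cells), granulocyte progenitors (267, 224 and 327 cells), megakaryocytes (759, 462 and 136), erythroid cells (3361, 2991 and 3039) and basophils or mast cells (322, 345 and 165). A further 1952 Skida1-deleted, 4254 MLL-ENL and 535 Control cells stayed unnamed and are in none of the classes compared below. Of these, 2489 MLL-ENL cells lay in cluster 23 (median 4007 UMIs), which held 63 Skida1-deleted and 11 Control cells. Cell barcodes shared by a pair of libraries numbered 14 to 21.

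Levels are UMIs of a gene summed over the cells of a class, in CPM of the gene UMIs of that class. All values in brackets are 95% intervals, exact Poisson for a level and exact conditional binomial for a ratio, and cover counting error only. With 1 library per group no test between groups was possible, so no p-value is given and no difference has a replicate check. A ratio is called higher or lower below only where its interval lies on 1 side of 1, which says that counting error alone does not span it and nothing about the spread between animals. In bulk sums of a class, more expressing cells and more RNA per cell cannot be told apart. UMIs here come from the 3′ ends of transcripts. The sources used here do not give the 3′ end that the MLL-ENL transcript carries, so UMIs of Kmt2a and Mllt1 cannot be divided between fusion and endogenous transcripts.

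KMT2A has a CXXC domain that binds unmethylated CG dinucleotides, so the promoters of 4 members are shown with each CG in capitals: Kmt2a itself, Mllt3 and Aff4, whose levels differed most between HSPC-like clusters of both fusion libraries, and Mllt10, which lies beside the deleted gene. Each runs 5′ to 3′ on its own strand, from 250 bases before to 50 after the start, from RefSeq on GRCm38.p6. They are Kmt2a (chr9:44881240-44881539, minus strand), Mllt3 (chr4:88033358-88033657, minus strand), Aff4 (chr11:53350517-53350816, plus strand) and Mllt10 (chr2:18064335-18064634, plus strand).
Kmt2a: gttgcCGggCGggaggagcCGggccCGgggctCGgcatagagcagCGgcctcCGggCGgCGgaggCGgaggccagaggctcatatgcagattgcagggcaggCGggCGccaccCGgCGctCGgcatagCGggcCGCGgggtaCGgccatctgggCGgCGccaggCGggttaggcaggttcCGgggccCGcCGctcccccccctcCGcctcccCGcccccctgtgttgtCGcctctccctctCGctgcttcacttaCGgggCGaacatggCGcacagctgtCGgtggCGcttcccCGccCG
Mllt3: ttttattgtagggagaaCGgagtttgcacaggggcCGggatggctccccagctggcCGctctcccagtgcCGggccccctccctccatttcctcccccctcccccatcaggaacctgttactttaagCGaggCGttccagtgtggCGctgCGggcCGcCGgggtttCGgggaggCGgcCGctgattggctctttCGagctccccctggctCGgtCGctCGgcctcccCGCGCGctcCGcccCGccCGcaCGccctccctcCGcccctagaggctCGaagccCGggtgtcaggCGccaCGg
Aff4: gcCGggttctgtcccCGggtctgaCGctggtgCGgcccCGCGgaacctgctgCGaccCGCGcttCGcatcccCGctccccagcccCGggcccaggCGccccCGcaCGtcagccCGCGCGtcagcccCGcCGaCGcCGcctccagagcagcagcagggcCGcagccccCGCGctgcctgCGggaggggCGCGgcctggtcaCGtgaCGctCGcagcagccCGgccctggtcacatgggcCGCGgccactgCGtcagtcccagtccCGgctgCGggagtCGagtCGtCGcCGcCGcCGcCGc
Mllt10: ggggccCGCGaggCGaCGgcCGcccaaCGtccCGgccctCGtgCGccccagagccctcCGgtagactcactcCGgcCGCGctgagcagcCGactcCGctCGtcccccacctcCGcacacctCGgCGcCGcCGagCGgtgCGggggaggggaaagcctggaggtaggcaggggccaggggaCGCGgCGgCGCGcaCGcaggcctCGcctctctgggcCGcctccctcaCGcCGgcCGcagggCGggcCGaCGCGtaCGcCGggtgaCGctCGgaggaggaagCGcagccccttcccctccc
The Aff4 window holds 44 CG and that of Mllt10 43, and 2.25% and 2.61% of the 32851 promoters in the table hold at least as many. Kmt2a has 36 (6.23% hold at least as many) and Mllt3 has 29 (12.9%), against a median of 7 over all promoters. Among the other members with an entry, Dot1l has 49, Mllt1 46, Aff1 40, Ell 29 and Men1 16. Psip1 has no entry. Where the table lists several starts the one with the most CG is given, and the lowest count at another start was 4 for Mllt3 and 6 for Mllt10. The shares of all promoters count every listed start, so windows picked for their CG are not set against like windows. On both strands the letters AGATAA, which GATA factors bind, occur in 11.2% of all promoters and in 0 of the 9 member windows. TGTGGT, which RUNX factors bind, occurs in 16.8% and in 0 of 9. CCGGAAG, which ETS factors bind, occurs in 8.86% of all promoters and in 2 of 9 member windows, Mllt1 and Dot1l. Other starts of the members were not searched, so these counts cannot tell the members from promoters at large. These are matches of letters in a window of 300 bases and say nothing of binding.

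The members lie on 9 chromosomes. In GRCm38.p6 the MLL complex genes are Kmt2a (ENSMUSG00000002028, chr9:44803355-44881352), Men1 (ENSMUSG00000024947, chr19:6334979-6340894) and Psip1 (ENSMUSG00000028484, chr4:83455680-83486463). The readers of acylated histones are Mllt1 (ENSMUSG00000024212, chr17:56892608-56935509) and Mllt3 (ENSMUSG00000028496, chr4:87769925-88033407). The elongation genes are Aff1 (ENSMUSG00000029313, chr5:103692362-103855322), Aff4 (ENSMUSG00000049470, chr11:53350640-53421830) and Ell (ENSMUSG00000070002, chr8:70539675-70592858). The DOT1L complex genes are Dot1l (ENSMUSG00000061589, chr10:80755101-80795461) and Mllt10 (ENSMUSG00000026743, chr2:18055160-18212390). Mllt10 is the neighbour of Skida1 (chr2:18044087-18048449), with 6710 bases and 0 whole genes between them.

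Kmt2a, the methyltransferase, was highest in HSPC-like cells of both fusion libraries and in megakaryocyte-like cells of Control, and lowest everywhere in erythroid-like and granulocyte progenitor-like cells. In HSPC-like cells it was at 142 CPM [138–147] in the Skida1-deleted library, 136 CPM [131–142] in MLL-ENL and 114 CPM [110–119] in Control. In erythroid-like cells it was at 47.7 CPM [46.4–49.1], 49.8 CPM [48.4–51.2] and 66.1 CPM [64.7–67.6] in the same order of libraries. Both fusion libraries were thus above Control in HSPC-like cells and below it in erythroid-like cells, with intervals apart. The step between these classes, HSPC-like over erythroid-like, was 2.98-fold [2.85–3.12] in the Skida1-deleted library, 2.74-fold [2.61–2.87] in MLL-ENL and 1.73-fold [1.65–1.81] in Control. In megakaryocyte-like cells Kmt2a was at 124 CPM [117–132] in the Skida1-deleted library, 109 CPM [101–117] in MLL-ENL and 132 CPM [119–147] in Control. There the Control library was highest and its interval overlapped that of the Skida1-deleted library.

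Men1, which encodes menin, had its highest level in Control in each of the 5 classes. In HSPC-like cells it was at 16.8 CPM [15.2–18.5] in the Skida1-deleted library, 17.5 CPM [15.7–19.4] in MLL-ENL and 24.6 CPM [22.5–26.9] in Control. In basophil-mast-like cells it was at 17.3 CPM [13.4–21.9], 12 CPM [8.88–16] and 26.3 CPM [20.5–33.3] in the same order. MLL-ENL was below Control without overlap in both classes. In megakaryocyte-like cells the levels were 11.4, 11.8 and 21.5 CPM, in granulocyte progenitor-like cells 12.6, 15.1 and 23.1 CPM, and in erythroid-like cells 12.9, 11.8 and 14.4 CPM, in the same order. The order of classes for Men1 was loose: in MLL-ENL each class overlapped the next in its interval.

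Psip1, which encodes the chromatin tether LEDGF, kept 1 order of classes in all 3 libraries: erythroid-like, megakaryocyte-like, HSPC-like, basophil-mast-like and granulocyte progenitor-like cells. Erythroid-like cells had 256 CPM [253–259] in the Skida1-deleted library, 266 CPM [262–269] in MLL-ENL and 291 CPM [288–294] in Control. Granulocyte progenitor-like cells had 118 CPM [108–129], 143 CPM [132–155] and 154 CPM [146–162] in that order. Erythroid-like and megakaryocyte-like cells overlapped in their intervals in every library. HSPC-like and basophil-mast-like cells overlapped in both fusion libraries. In Control megakaryocyte-like cells overlapped HSPC-like cells, and basophil-mast-like cells overlapped granulocyte progenitor-like cells. These steps of the order were thus not resolved. In HSPC-like cells Psip1 was at 184 CPM [178–189] in the Skida1-deleted library, 194 CPM [188–200] in MLL-ENL and 243 CPM [236–250] in Control.

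**Figure D1:**
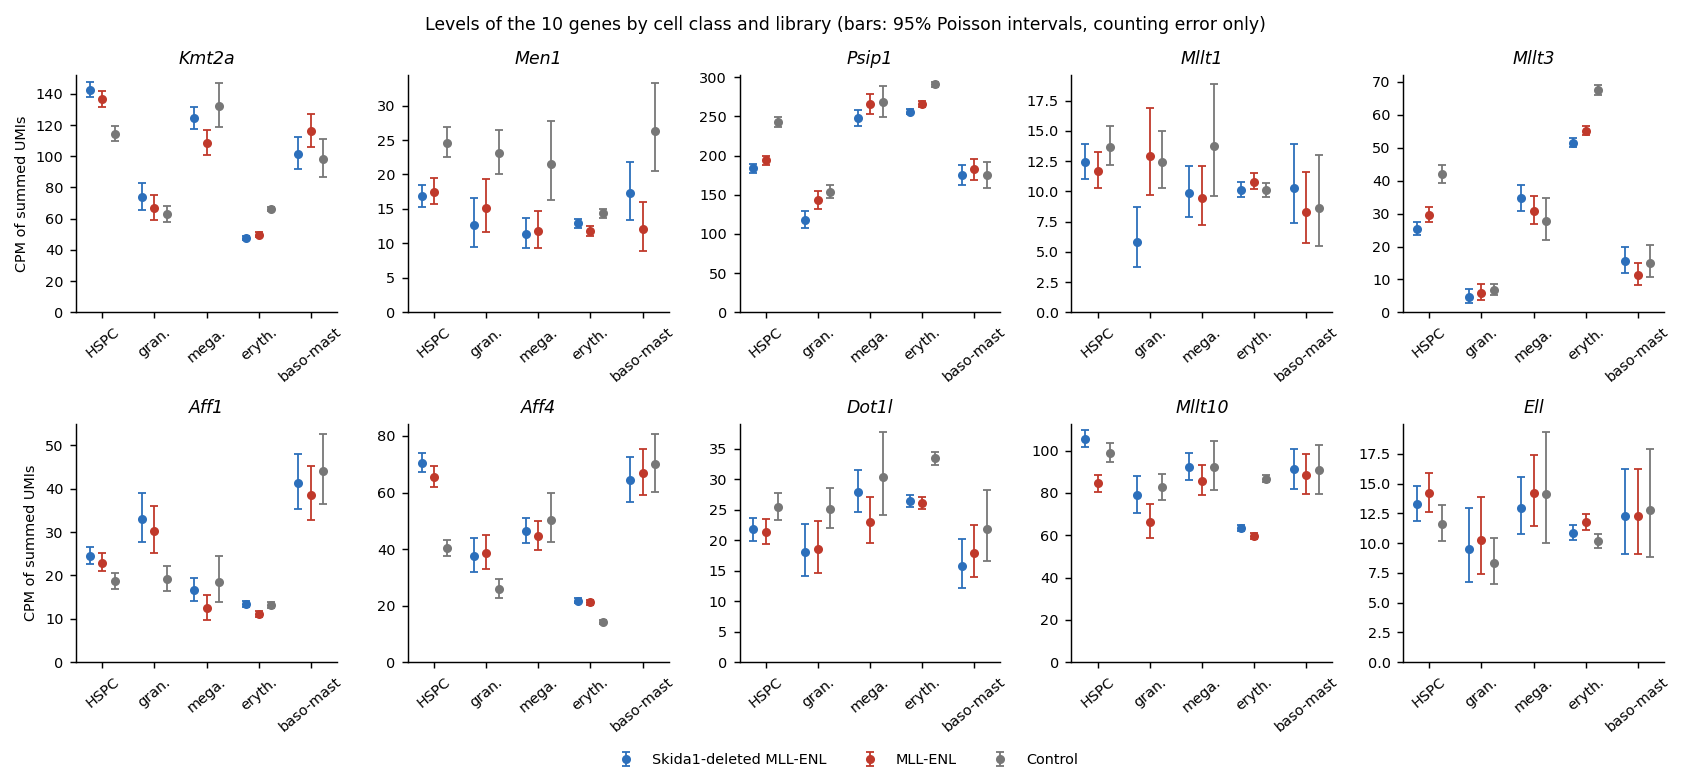
Level of each of the 10 genes in CPM (linear axes from 0, a separate scale per gene) in 5 cell classes, with 1 point per library (Skida1-deleted MLL-ENL blue, MLL-ENL red, Control grey) and exact Poisson 95% bars. Mllt3 spans the widest range between classes, with 51.5, 55.2 and 67.4 CPM in erythroid-like cells and 4.62, 5.86 and 6.77 CPM in granulocyte progenitor-like cells, and Men1 is highest in Control in all 5 classes.

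The histone reader Mllt3 was the member most unequal between classes. Its paralog Mllt1 encodes ENL, the fusion partner itself. Mllt3 in erythroid-like cells was at 51.5 CPM [50.1–52.9] in the Skida1-deleted library, 55.2 CPM [53.8–56.7] in MLL-ENL and 67.4 CPM [66.0–68.9] in Control. In granulocyte progenitor-like cells it was at 4.62 CPM [2.78–7.21], 5.86 CPM [3.75–8.71] and 6.77 CPM [5.19–8.68] in the same order. Its highest class was thus 11.2 times its lowest in the Skida1-deleted library, 9.43 times in MLL-ENL and 9.96 times in Control. HSPC-like cells lay between, at 25.4 CPM [23.4–27.5] in the Skida1-deleted library, 29.6 CPM [27.3–32.1] in MLL-ENL and 42.0 CPM [39.2–44.9] in Control. Mllt1 ranged over the 5 classes from 5.83 to 12.4 CPM in the Skida1-deleted library, from 8.28 to 12.9 CPM in MLL-ENL and from 8.65 to 13.7 CPM in Control. Each class overlapped the next in all 3 libraries, so neighbours in the order of classes were not resolved for Mllt1. In the Skida1-deleted library HSPC-like cells were 2.13-fold [1.40–3.38] above granulocyte progenitor-like cells, the ends of that order, while the same ratio was 0.904 [0.669–1.24] in MLL-ENL and 1.10 [0.882–1.38] in Control.

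The scaffold genes Aff1 and Aff4 were both high in basophil-mast-like cells and low in erythroid-like cells. Aff1 was at 41.3 CPM [35.2–48.1] in basophil-mast-like cells of the Skida1-deleted library, 38.7 CPM [32.8–45.3] in MLL-ENL and 44.0 CPM [36.4–52.8] in Control. It was at 13.3, 11.1 and 13.1 CPM in erythroid-like cells in the same order. In granulocyte progenitor-like cells Aff1 had 33.0 CPM [27.7–39.1] in the Skida1-deleted library, 30.3 CPM [25.2–36.1] in MLL-ENL and 19.1 CPM [16.4–22.2] in Control. Those granulocyte intervals of both fusion libraries lay wholly above Control. In the same class basophil-mast markers summed to 274 CPM (6 of 10 detected) in the Skida1-deleted library, 213 CPM (7 of 10) in MLL-ENL and 108 CPM (7 of 10) in Control, with Gzmb and Fcer1a at 0 in all 3. Eosinophil markers summed to 22.4, 10.0 and 7.76 CPM, with 4, 3 and 4 of 5 detected, and 40.1%, 35.7% and 5.50% of cells were called G1, in the same order. Monocyte-dendritic markers summed to 408 CPM (7 of 11 detected), 467 CPM (11 of 11) and 748 CPM (11 of 11) in that order. At a finer clustering (resolution 1.5) 9, 24 and 183 cells were named monocyte-dendritic progenitor-like, and 235, 192 and 170 granulocyte progenitor-like. The part of these measures in the Aff1 level and in the other ratios of this class was not tested. Aff4 in HSPC-like cells was at 70.6 CPM [67.3–74.1] in the Skida1-deleted library, 65.6 CPM [62.1–69.2] in MLL-ENL and 40.4 CPM [37.7–43.2] in Control. In basophil-mast-like cells it was at 64.3 CPM [56.7–72.7], 66.8 CPM [59.0–75.3] and 70.0 CPM [60.3–80.8] in the same order. HSPC-like cells therefore overlapped basophil-mast-like cells for Aff4 in both fusion libraries, and lay below them in Control. In erythroid-like cells Aff4 was at 21.8 CPM [20.9–22.7] in the Skida1-deleted library, 21.1 CPM [20.2–22.0] in MLL-ENL and 14.2 CPM [13.5–14.9] in Control. The elongation factor gene Ell lay between 9.48 and 13.3 CPM over the classes of the Skida1-deleted library, between 10.2 and 14.2 CPM in MLL-ENL and between 8.30 and 14.1 CPM in Control, with neighbouring classes overlapping throughout.

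Dot1l, the H3K79 methyltransferase, was highest in erythroid-like and megakaryocyte-like cells. It was at 26.4 CPM [25.4–27.4] in erythroid-like cells of the Skida1-deleted library, 26.1 CPM [25.1–27.1] in MLL-ENL and 33.4 CPM [32.4–34.5] in Control. It was at 15.8, 17.8 and 21.8 CPM in basophil-mast-like cells in that order, the lowest class in each library. Its cofactor gene Mllt10 differed from it in that erythroid-like cells were low in both fusion libraries, at 63.3 CPM [61.8–64.9] in the Skida1-deleted library and 59.5 CPM [58.0–61.1] in MLL-ENL, against 86.7 CPM [85.1–88.4] in Control. In HSPC-like cells Mllt10 was at 106 CPM [102–110] in the Skida1-deleted library, 84.6 CPM [80.6–88.7] in MLL-ENL and 99.0 CPM [94.8–103] in Control. MLL-ENL was the low library in that class, apart from both others. The highest class of Mllt10 was 1.67 times its lowest in the Skida1-deleted library, 1.49 times in MLL-ENL and 1.2 times in Control.

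Set against Control, MLL-ENL cells of the HSPC-like class had more Aff4, Aff1, Ell and Kmt2a, and less Mllt3, Men1, Psip1, Dot1l and Mllt10. The interval for Mllt1 included 1. Aff4 was 1.62-fold higher [1.49–1.77], Aff1 1.23-fold [1.07–1.41], Ell 1.22-fold [1.02–1.46] and Kmt2a 1.19-fold [1.13–1.26]. The ratio of MLL-ENL to Control was 0.706 [0.635–0.785] for Mllt3, 0.710 [0.618–0.815] for Men1, 0.798 [0.765–0.832] for Psip1, 0.840 [0.738–0.957] for Dot1l, 0.854 [0.80–0.911] for Mllt10 and 0.853 [0.715–1.02] for Mllt1. Relative to the median gene of the class Dot1l stood at 0.911 and Mllt10 at 0.925, and Dot1l stood at 1.02 when only G1 cells were used. At a threshold of 1.5-fold, 1 of the 10 members was higher (Aff4), where 7.64% of the 9842 genes measured in this class were, and 0 were lower, where 15.9% of genes were. A gene counted as measured at 5 CPM in either library and 20 UMIs over both. Of all measured genes, 94.5% had a smaller ratio than Aff4. Aff4 stood at 1.40 when each library was clustered on its own and at 1.29 without the low-depth cluster 22, both short of the threshold. In the same settings Kmt2a stood at 1.09 and 1.07. Mllt3 varied more between settings, from 0.284 without that cluster to 0.940 [0.821–1.08] with no doublets removed. Its interval also included 1 at a finer clustering, at 0.932 [0.813–1.07], and with cells thinned to equal depth, at 0.854 [0.708–1.03]. Apart from thinning, these settings compared unlike sets of cells. In place of 1762 MLL-ENL and 1214 Control cells, 1215 and 1209 were compared without cluster 22. The numbers were 1836 and 475 with no doublets removed, and 1694 and 472 at the finer clustering.

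Several measures moved with the comparison of MLL-ENL with Control, and their part in it was not tested. The median log2 ratio over all measured genes was −0.12 in HSPC-like cells and −0.15 to −0.21 in the other 4 classes. Relative to that median Aff4 was 1.76-fold higher in HSPC-like cells, Kmt2a 1.29-fold, and Men1 stood at 0.769. Transcripts of ribosomal proteins made up 32.8% of UMIs of the HSPC-like class in the Skida1-deleted library, 31.9% in MLL-ENL and 27.2% in Control. The share of HSPC-like cells called G1 from cell cycle genes was 56.5%, 60.8% and 33.4% in the same order. The class was also made mostly of different clusters, 11, 21 and 22 in the fusion libraries and 2 and 8 in Control, although the 10 members had been left out of the genes used for clustering. Granulocyte marker genes were present in the class in all 3 libraries, with 8 of 8 detected and a summed level of 2068 CPM in the Skida1-deleted library, 2066 in MLL-ENL and 2322 in Control. All 12 HSPC markers were detected, summing to 1217, 1161 and 1256 CPM in that order. Lymphoid progenitor markers summed to 321, 376 and 355 CPM with 7, 8 and 8 of 8 detected. Erythroid markers summed to 263, 294 and 364 CPM with 13, 13 and 12 of 13 detected. Megakaryocyte markers summed to 204, 186 and 167 CPM with 10 of 10 detected. Globin genes made up 0.0392%, 0.0512% and 0.0545% of UMIs, against 0.0412%, 0.0444% and 0.0706% in erythroid-like cells. Mature neutrophil markers summed to 4.14, 2.87 and 2.78 CPM with 6, 6 and 7 of 8 detected, macrophage markers to 1.63, 2.97 and 7.22 CPM with 7 of 7 detected, and hepatocyte markers to 13.3, 10.9 and 8.20 CPM with 5 of 5 detected. Of 6 stromal markers 1 had any UMI in each library, and Col3a1, Dcn, Lum and Des were at 0 in all 3.

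**Figure D2:**
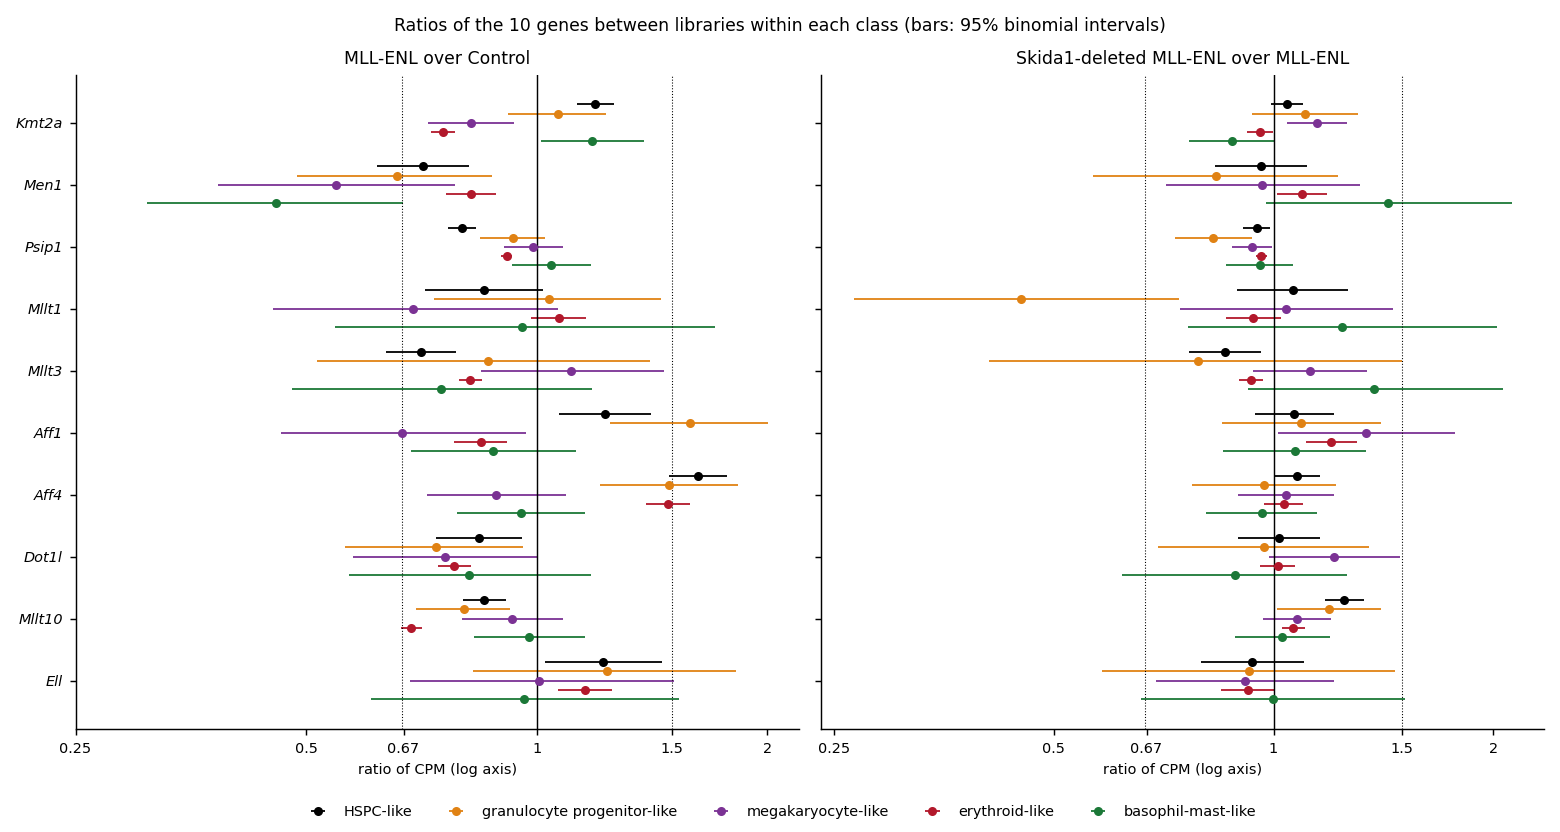
Ratio of CPM on a log axis for each gene, with 1 coloured point per class, MLL-ENL over Control in one panel and Skida1-deleted MLL-ENL over MLL-ENL in the other. Bars are 95% binomial intervals for counting error and dotted lines mark 1.5-fold either way. Against Control, Aff4 at 1.62 in HSPC-like cells is the highest point and Men1 at 0.457 in basophil-mast-like cells the lowest, and Mllt1 at 0.451 in granulocyte progenitor-like cells is the lowest for the deletion.

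Men1 was the member whose interval lay below 1 in all 5 classes when MLL-ENL was set against Control. Dot1l and Mllt10 also had ratios below 1 in 5 of 5 classes, with intervals that reached 1 in some. Its ratio of MLL-ENL to Control was 0.656 [0.486–0.875] in granulocyte progenitor-like cells, 0.547 [0.384–0.782] in megakaryocyte-like cells, 0.821 [0.761–0.885] in erythroid-like cells and 0.457 [0.310–0.67] in basophil-mast-like cells. With HSPC-like cells it was therefore below 1 in 5 of 5 classes, and past 1.5-fold in 3. In granulocyte progenitor-like cells 5 of 10 alternative settings kept it past that threshold. Relative to the median gene it stood between 0.508 and 0.913. These rest on few molecules outside the HSPC-like and erythroid-like classes: 62 UMIs in MLL-ENL and 211 in Control for granulocyte progenitor-like cells, 77 and 58 for megakaryocyte-like cells, and 48 and 70 for basophil-mast-like cells. The basophil-mast-like class joined clusters 7 and 15, with 6 of 322 Skida1-deleted, 83 of 345 MLL-ENL and 20 of 165 Control cells in cluster 15. Its own markers summed to 1746, 3230 and 5281 CPM in that order (9, 10 and 10 of 10 detected), and their part in the Men1 level was not tested. Within cluster 7 Men1 was at 12.8 CPM [9.37–17.1] in MLL-ENL and 27.7 CPM [21.5–35.0] in Control.

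In granulocyte progenitor-like cells 1 member was at least 1.5-fold higher in MLL-ENL than in Control, where 7.31% of 9284 genes were, and 1 was lower, where 20.3% were. Aff1 was the higher one, at 1.58 [1.247–2.0], and Men1 the lower one. Aff4 stood at 1.49 [1.21–1.83], just inside that threshold, Dot1l at 0.738 [0.562–0.961] and Mllt10 at 0.803 [0.696–0.923]. The class also differed between the libraries in monocyte-dendritic markers, as given above, and their part in these ratios was not tested. In megakaryocyte-like cells 0 members were higher, where 8.75% of 9521 genes were, and 1, Men1, was lower, where 18.7% were. Aff1 in that class had a ratio of 0.667 [0.463–0.969], just inside the threshold, and Kmt2a of 0.820 [0.721–0.934]. In basophil-mast-like cells 0 were higher, against 8.74% of 9535 genes, and 1, again Men1, was lower, against 17.8%. In that class 8 of the 10 intervals included 1, and Kmt2a stood at 1.18 [1.01–1.38].

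Erythroid-like cells gave the narrowest intervals and 0 members past 1.5-fold in either direction, where 4.93% of 8499 genes were higher and 13.7% lower. Mllt10 had a ratio of MLL-ENL to Control of 0.686 [0.664–0.709], Kmt2a of 0.754 [0.727–0.781], Dot1l of 0.781 [0.742–0.821], Mllt3 of 0.819 [0.791–0.848] and Aff1 of 0.845 [0.781–0.913]. Aff4 and Ell went the other way, at 1.48 [1.39–1.58] and 1.16 [1.07–1.255]. Relative to the median gene of the class Mllt10 stood at 0.764, Kmt2a at 0.839 and Aff4 at 1.65. Psip1 was at 0.913 [0.899–0.928], but at 1.02 relative to the median gene and 1.03 with TMM scaling, so that its direction in erythroid-like cells depended on the scaling. This class too was made mostly of different clusters, 12 and 24 to 27 in the fusion libraries and 0, 1, 3 and 4 in Control. Its extent depended on the naming. When cells were named after their nearest Control cells, 4468 Skida1-deleted, 6204 MLL-ENL and 3074 Control cells were erythroid-like.

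Mllt3 and Aff4 were unevenly spread within the HSPC-like class. In both fusion libraries the class held 1 cluster, number 22, with low depth and few cycling cells: 605 cells with a median of 5623 UMIs and 95.5% in G1 in the Skida1-deleted library, and 547 cells with 6421 UMIs and 96.3% in G1 in MLL-ENL. The other HSPC-like cells (clusters 11 and 21) had medians of 10713.5 and 12862 UMIs and 42.8% and 44.3% in G1. Hlf, a transcription factor gene of stem cells, was at 582 CPM in cluster 22 and 214 CPM in the others of the Skida1-deleted library, and at 576 and 166 CPM in MLL-ENL. Procr, a surface marker of stem cells, was at 38.1 against 2.63 CPM and at 43.5 against 2.56 CPM. Mpo, a granule enzyme of myeloid progenitors, was at 91.7 against 1137 CPM in the Skida1-deleted library and at 79.1 against 1168 CPM in MLL-ENL. In Control the split was milder, with cluster 8 (758 cells, 12784.5 UMIs, 52.1% in G1) and cluster 2 (436 cells, 21146.5 UMIs, 0% in G1) at 202 and 152 CPM of Hlf and 734 and 932 CPM of Mpo.

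In cluster 22 Mllt3 reached 98.7 CPM in the Skida1-deleted library and 109 CPM in MLL-ENL, against 12.4 and 11.9 CPM in the other HSPC-like cells of these libraries. That was 7.96-fold [6.75–9.39] in the Skida1-deleted library and 9.20-fold [7.72–11.0] in MLL-ENL. In Control Mllt3 was at 50.9 CPM in cluster 8 and 32.0 CPM in cluster 2, or 1.59-fold [1.38–1.83]. Compared by cluster, 1 part of each fusion library thus lay above both Control clusters and the other part below both. These are averages over clusters, and the Control clusters differed less in Hlf, so they do not bound the levels of Control cells. Control cells with a Hlf UMI, described below, were at 103 CPM of Mllt3. Aff4 was at 133 CPM in cluster 22 and 59.7 CPM in the other cells of the Skida1-deleted library, 2.23-fold [2.0–2.48], and at 126 and 51.6 CPM in MLL-ENL, 2.43-fold [2.17–2.73]. Control had 43.2 and 37.2 CPM of Aff4, 1.16-fold [1.01–1.34]. With clusters 11 and 21 pooled, Aff4 was therefore higher than in either Control cluster in both parts of both fusion libraries. Taken singly, clusters 11 and 21 were at 62.0 and 56.9 CPM in the Skida1-deleted library and at 55.1 and 46.8 CPM in MLL-ENL. Cluster 21 of MLL-ENL thus lay close to the 43.2 CPM of Control cluster 8. Kmt2a was at 217 and 129 CPM in the Skida1-deleted library, 1.68-fold [1.55–1.82], and at 199 and 123 CPM in MLL-ENL, 1.62-fold [1.49–1.77], with 0.998 [0.919–1.08] in Control. Psip1 was the member that ran the other way in all 3 libraries, with ratios of 0.884 [0.810–0.964], 0.806 [0.737–0.880] and 0.844 [0.798–0.893] in the order Skida1-deleted, MLL-ENL and Control. The shallowest cluster also differed from the others in depth and cell cycle, as given above, and their part in these ratios was not tested.

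HSPC-like cells were also divided by Hlf within the class. Each cell was thinned to 3000 UMIs, which kept 2353 of 2377 Skida1-deleted, 1760 of 1762 MLL-ENL and 1208 of 1214 Control cells, and cells with a UMI of Hlf were set against cells without one. Mllt3 was at 56.8 CPM in Hlf-positive and 18.6 CPM in Hlf-negative cells of the Skida1-deleted library, 3.06-fold [2.30–4.12]. It was at 68.4 and 29.4 CPM in MLL-ENL, 2.33-fold [1.78–3.07], and at 103 and 26.7 CPM in Control, 3.86-fold [2.83–5.31]. In every library Hlf-positive cells were thus higher in Mllt3. Control had the highest level in Hlf-positive cells, whereas by cluster the highest level was in cluster 22 of the fusion libraries. Cells with a Hlf UMI numbered 1203 of 2353 in the Skida1-deleted library, 853 of 1760 in MLL-ENL and 472 of 1208 in Control. The cut thus took unlike shares of the class, so Hlf-positive cells of different libraries are not like sets. Kmt2a was also higher in Hlf-positive cells, at 1.31 [1.16–1.47], 1.37 [1.19–1.58] and 1.38 [1.15–1.67] in the same order of libraries. Aff4 stood at 1.47 [1.24–1.76] in the Skida1-deleted library and 1.54 [1.27–1.87] in MLL-ENL, and its interval in Control, 1.30 [0.957–1.77], included 1.

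**Figure D3:**
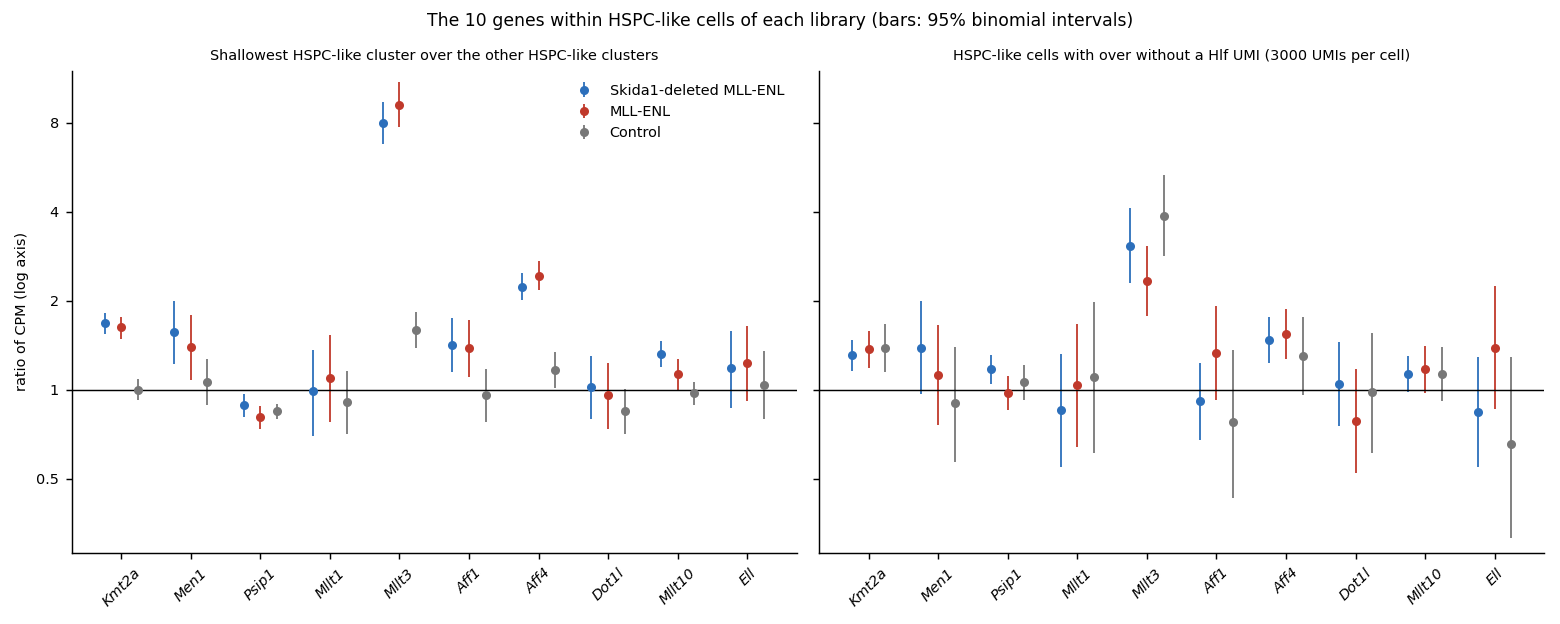
Ratio of CPM on a log axis for each gene within HSPC-like cells, by library, with 95% binomial bars. One panel sets the shallowest cluster over the other HSPC-like clusters, with Mllt3 at 7.96 in Skida1-deleted MLL-ENL, 9.20 in MLL-ENL and 1.59 in Control, and the other sets cells with a Hlf UMI over cells without one, with Mllt3 at 3.06, 2.33 and 3.86 in that order.

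Within the erythroid-like class Mllt3 and Aff4 ran in opposite directions with globin. These cells, sorted for KIT, held little globin RNA, and they were cut at their median share (0.00756% of UMIs, with globin genes left out of the totals). High-globin cells had medians of 7, 7 and 12 globin UMIs per cell in Skida1-deleted MLL-ENL, MLL-ENL and Control, and low-globin cells 1 in each. Total depth was alike on both sides, with medians of 29015 and 29664.5 UMIs in the Skida1-deleted library, 31697 and 31756 in MLL-ENL and 38353 and 35681 in Control. Kit, the receptor of the sort, which red cell precursors lose as they mature, was at 168 CPM in high-globin and 272 CPM in low-globin cells of the Skida1-deleted library, at 141 and 241 CPM in MLL-ENL and at 151 and 243 CPM in Control, so the cut separated cells by the level of a gene it had not used. Mllt3 was at 61.1 CPM in high-globin and 42.6 CPM in low-globin cells of the Skida1-deleted library, 1.43-fold [1.36–1.51]. It was at 65.1 and 43.6 CPM in MLL-ENL, 1.49-fold [1.41–1.58], and at 87.1 and 48.5 CPM in Control, 1.79-fold [1.71–1.88]. High-globin cells were above low-globin cells in every library. Aff4 had a ratio of 0.841 [0.773–0.915] in the Skida1-deleted library, 0.888 [0.814–0.970] in MLL-ENL and 0.644 [0.583–0.711] in Control. Mllt10 was also lower in high-globin cells, at 0.822 [0.783–0.864], 0.863 [0.819–0.909] and 0.852 [0.819–0.886] in the same order, and Psip1 slightly higher at 1.07, 1.07 and 1.08. Kmt2a was lower in high-globin cells of the Skida1-deleted library, at 0.921 [0.871–0.975], and of Control, at 0.808 [0.772–0.845], while its interval in MLL-ENL, 1.03 [0.976–1.09], included 1.

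**Figure D4:**
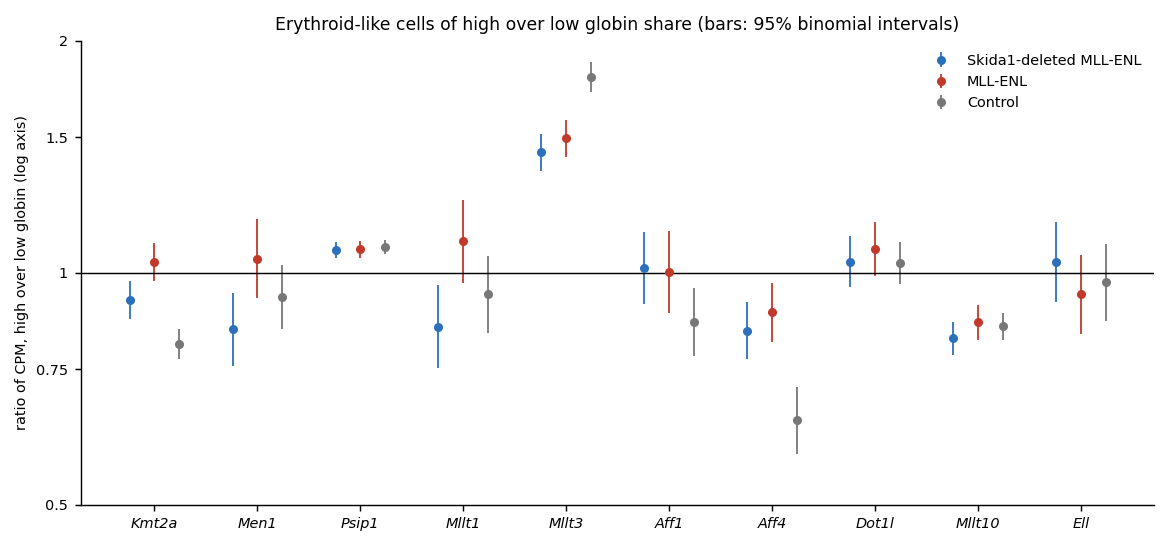
Ratio of CPM on a log axis for each gene, high-globin over low-globin erythroid-like cells, by library, with 95% binomial bars. Mllt3 lies above 1 in all 3 libraries (1.43 in Skida1-deleted MLL-ENL, 1.49 in MLL-ENL and 1.79 in Control), and Aff4 and Mllt10 lie below 1 in all 3.

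Skida1 had 43 UMIs, or 1.80 CPM [1.30–2.42], among HSPC-like cells with the deletion, against 320 UMIs and 15.9 CPM [14.2–17.7] in MLL-ENL and 20 UMIs and 0.976 CPM [0.596–1.51] in Control. The library labelled as deleted was thus the lower of both fusion libraries, with UMIs still present.

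With Skida1 deleted, the member farthest from a ratio of 1 in HSPC-like cells was its chromosomal neighbour Mllt10. It was 1.2505-fold higher in the Skida1-deleted library [1.18–1.33], and 93.1% of the 9577 measured genes had a smaller ratio. By cluster Mllt10 was at 133 CPM in Skida1-deleted and 93.5 CPM in MLL-ENL cells of cluster 22, 1.42-fold [1.24–1.64], at 102 and 85.6 CPM in cluster 11, 1.19-fold [1.09–1.31], and at 99.8 and 79.2 CPM in cluster 21, 1.26-fold [1.13–1.40]. The Skida1-deleted library was the higher in each of the 3 clusters. In granulocyte progenitor-like cells the ratio was 1.19 [1.01–1.40] and in erythroid-like cells 1.06 [1.03–1.10], while the intervals of megakaryocyte-like cells, 1.08 [0.967–1.2005], and basophil-mast-like cells, 1.03 [0.886–1.19], included 1. The same MLL-ENL library, in which Mllt10 was below Control, serves both comparisons. The sources used here do not give the extent of the deletion, and the part of the nearby deletion in the Mllt10 level was not tested.

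The other members lay nearer to 1 in HSPC-like cells when the deleted library was set against MLL-ENL. At 1.5-fold 0 of 10 members were higher, where 1.69% of 9577 genes were, and 0 were lower, where 1.26% were. Mllt3 stood at 0.858 [0.765–0.962], Psip1 at 0.948 [0.907–0.990] and Aff4 at 1.08 [1.0–1.16], and 6 of the 10 intervals included 1. The Mllt3 ratio did not hold its side of 1: it was 1.21 [0.924–1.60] with a strict cell filter and 1.05 [0.867–1.27] without the low-depth cluster 22. By cluster it was 0.878 [0.677–1.14] in cluster 11, 1.31 [0.971–1.78] in cluster 21 and 0.903 [0.781–1.04] in cluster 22, each interval including 1. The median gene of the class had a log2 ratio of −0.02. In megakaryocyte-like cells 0 members were past 1.5-fold in either direction, where 2.52% of 9251 genes were higher and 2.11% lower. Kmt2a was 1.15-fold higher there [1.04–1.26] and Aff1 1.34-fold [1.02–1.77]. In erythroid-like cells 0 members were past it, where 1.13% of 8154 genes were higher and 0.92% lower, and Aff1 was 1.2-fold higher [1.11–1.30]. In basophil-mast-like cells 0 members were past it, where 4.33% of 9317 genes were higher and 5.66% lower, and all 10 intervals included 1. Psip1 was below 1 with its interval in 4 of the 5 classes, with ratios from 0.827 [0.732–0.935] in granulocyte progenitor-like cells to 0.962 [0.946–0.979] in erythroid-like cells. These ratios are not scaled to the median gene, whose log2 ratio was −0.07 in granulocyte progenitor-like and −0.04 in erythroid-like cells. The erythroid ratio of Psip1 thus lay close to that of the median gene.

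Mllt1 was the member farthest from 1 in this comparison, in granulocyte progenitor-like cells. It had 24 UMIs and 5.83 CPM [3.74–8.68] in the Skida1-deleted library, against 53 UMIs and 12.9 CPM [9.69–16.9] in MLL-ENL, a ratio of 0.451 [0.266–0.743]. It was the 1 member past 1.5-fold lower in that class, where 6.33% of 9005 genes were, and 0 members were higher, where 3.74% were. When cells were assigned by marker score instead of by cluster the ratio was 1.24, on the other side of 1. In the other classes the Mllt1 ratio of the Skida1-deleted library to MLL-ENL lay between 0.939 and 1.24, with 1 inside each interval.

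**Figure D5:**
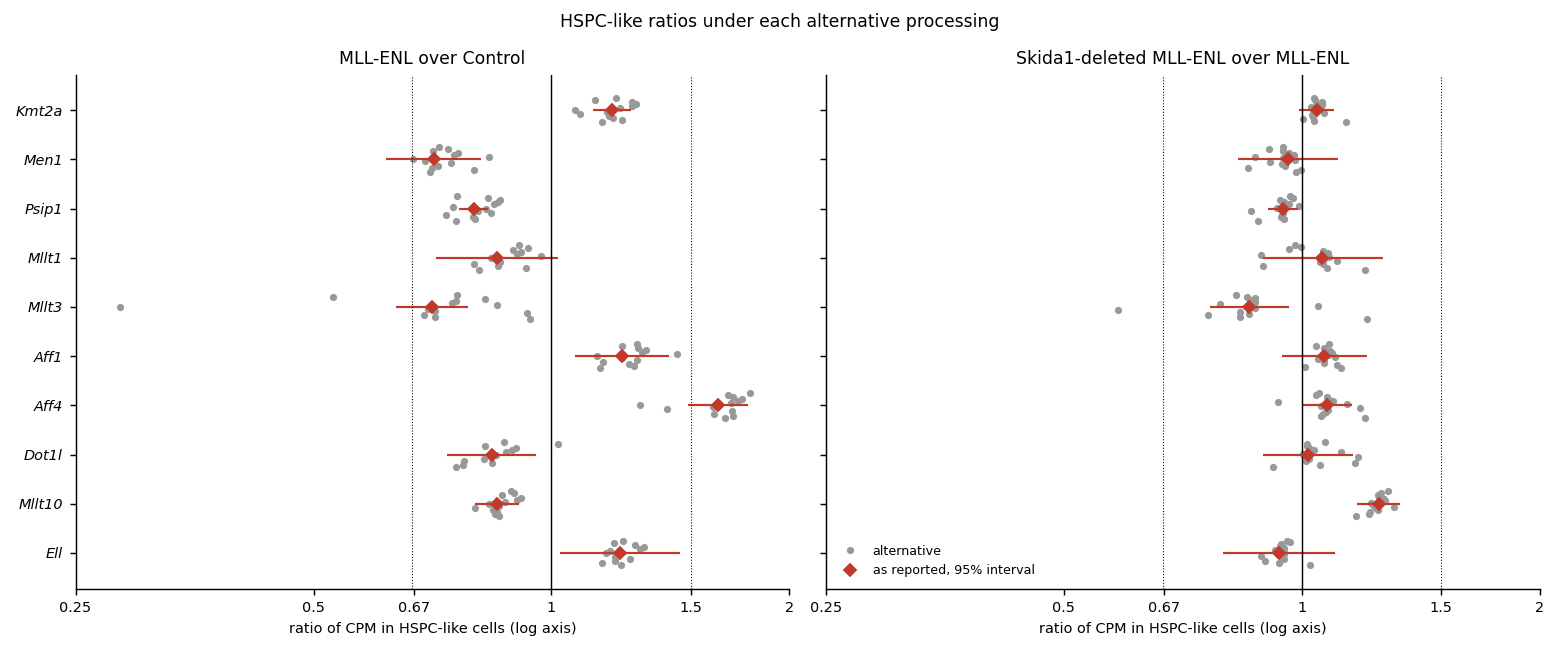
Ratio of CPM in HSPC-like cells on a log axis as reported (red diamond with its 95% interval) and under each alternative processing (grey points), for MLL-ENL over Control and for Skida1-deleted MLL-ENL over MLL-ENL, with dotted lines at 1.5-fold either way. Mllt3 against Control scatters between 0.284 and 0.940 and Aff4 between 1.29 and 1.78, while Mllt10 for the deletion stays between 1.17 and 1.31.

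The genes that work with the members were counted from 8 lists, for MLL-ENL over Control within the HSPC-like class, where the shares of all genes past 1.5-fold given above (7.64% higher, 15.9% lower) apply. Of the remaining MLL complex subunits and cofactors 8 of 8 were measured, 1 was higher and 2 were lower. Hcfc2 stood at 1.55 [1.17–2.06], Kat8, an acetyltransferase of MLL complexes, at 0.498 [0.421–0.587], and Tasp1, the protease that cleaves MLL, at 0.525 [0.429–0.640]. The median log2 ratio of this list was −0.27, against −0.12 for all genes. Of the other H3K4 methyltransferases and their subunits 10 were measured, 1 was higher (Setd1a, 1.67 [1.48–1.89]) and 1 lower (Cxxc1, 0.664 [0.588–0.749]). Kmt2c and Kmt2d, paralogs of Kmt2a, stood at 1.40 [1.29–1.52] and 1.38 [1.21–1.57], and the median of the list was 0.23. Of the PAF complex, which links MLL to RNA polymerase II, 6 were measured, 0 were higher and 1 was lower (Leo1, 0.615 [0.557–0.679]), with Paf1 at 0.678 [0.607–0.756] and a median of −0.28.

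Of 9 further genes of the super elongation complex and P-TEFb 6 were measured, 2 were higher and 0 were lower. Ell2, an elongation factor related to Ell, was at 17.1 CPM in MLL-ENL and 6.54 CPM in Control, 2.61-fold [2.13–3.21]. Eaf1, a partner of ELL proteins, was at 15.9 and 9.81 CPM, 1.62-fold [1.36–1.95], and Ccnt1, the cyclin of P-TEFb, at 1.35 [1.24–1.47]. The median log2 ratio of this list was 0.34. In granulocyte progenitor-like cells 1 gene of this list was higher and 1 lower, where 7.31% and 20.3% of all genes were. In megakaryocyte-like cells the counts were 2 and 0, against 8.75% and 18.7%. They were 0 and 0 in erythroid-like cells, against 4.93% and 13.7%, and 0 and 1 in basophil-mast-like cells, against 8.74% and 17.8%. Of the genes that hold back or release P-TEFb 4 were measured with 0 past the threshold. Mllt6, the other AF10-like gene, stood at 1.04 [0.811–1.33]. Of 10 measured partners that fuse to MLL in other leukaemias 0 were past the threshold, with Tet1 at 1.28 [1.16–1.41]. Of 7 known targets of the fusion 4 were higher and 0 lower: Skida1 at 16.3 [10.3–27.0], Mecom at 3.19 [2.94–3.46], Hoxa10 at 2.40 [2.06–2.81] and Hoxa9 at 1.63 [1.55–1.72].

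With Skida1 deleted, 0 of the 8 MLL complex subunits, 0 of the 6 elongation genes and 0 of the 6 PAF genes were past 1.5-fold against MLL-ENL in HSPC-like cells. Of all genes there, 1.69% were higher and 1.26% lower, so counts of 0 in lists this small say nothing particular about them. The PAF list had a median log2 ratio of 0.18, with Paf1 at 1.34 [1.2–1.49] and, chosen after its value was seen, Rtf1 at 1.32 [1.26–1.38]. The genes past the threshold, also chosen after their values were seen, were Kdm6a, an X-linked histone demethylase gene, at 0.641 [0.586–0.702], and Eya1, a listed target, at 1.93 [1.71–2.19], besides Skida1 itself at 0.113 [0.0805–0.156]. The sex of the animals is not known here, and its part in the Kdm6a level was not tested.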

How the data were processed

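RNA and 10 antibody tags, the tags not used here, were counted in 3 libraries, 1 per group. Per the labels' protocols polyA RNA was captured with 10x Genomics 3′ chemistry. The deposited values are raw UMI counts of the authors, per gene and cell barcode and not normalized. Cell Ranger 6.1.2 wrote them per the file headers, while 6.0.1 and build mm10 stand in the submitters' processing notes.

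Cells with at least 1000 UMIs, 500 genes and under 10% mitochondrial UMIs were kept: 9962 Skida1-deleted, 11148 MLL-ENL and 5777 Control cells. Scrublet in scanpy 1.11.5 called doublet numbers at odds with the cell numbers, so the highest scores were removed at 0.8% per 1000 cells (794, 994 and 267 cells in that order). All cells were clustered together without integration (2000 variable genes without the members, 30 components, 15 neighbours, Leiden resolution 1.0). A cluster was named, as "like" a class, from 15 marker lists by its top 50 genes, with at least 3 markers raised 1.5-fold; otherwise it stayed unnamed.

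UMIs were summed per library and class as CPM, and ratios of CPM were formed for classes of at least 100 cells, with intervals from scipy 1.17.1. Because each group has 1 library, edgeR 4.0.16 gave only TMM factors for an alternative. The interval code was tested on simulated data. All 10 members are reported. Of 8 further lists (MLL complex core and cofactors, other H3K4 methyltransferases, super elongation complex and P-TEFb, P-TEFb inhibition and release, DOT1L partners, PAF complex, other MLL fusion partners, MLL-ENL target genes) counts and at most 4 genes with the largest ratio of MLL-ENL to Control are named. For each member the 2 genes most alike by Pearson's r over 15 profiles of library and class were taken. Members and lists were chosen with earlier results of these data known. Positions were joined by symbol from a RefSeq table of GRCm38.p6 (mm10).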

Additional observations from a re-analysis of the deposited data

Results flagged for a closer look

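Kmt2a went in opposite directions in different classes of the same comparison. MLL-ENL over Control was 1.19 [1.13–1.26] in HSPC-like cells and 0.754 [0.727–0.781] in erythroid-like cells. The HSPC-like ratio was nearer to 1 in some settings. It was 1.07 [1.01–1.14] without low-depth clusters and 1.09 [1.004–1.17] with each library clustered on its own. Skida1-deleted MLL-ENL over MLL-ENL was 1.15 [1.04–1.26] in megakaryocyte-like cells and 0.959 [0.921–0.998] in erythroid-like cells. The erythroid value was 0.987 relative to the median gene of its class and 0.982 with TMM scaling, where its interval included 1. The megakaryocyte interval included 1 with the strict cell filter, with cells thinned and with G1 cells only. Aff1 did so as well, at 1.58 [1.247–2.0] in granulocyte progenitor-like cells and 0.667 [0.463–0.969] in megakaryocyte-like cells of MLL-ENL over Control. These were picked because 2 classes have intervals on opposite sides of 1. With 1 library per group the difference between classes was not tested, and the intervals cover counting error only.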

How the results depend on the processing

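Over 15 alternative settings and 2 more chosen after seeing the data (nearest Control cells, and leaving out low-depth clusters), 1510 values were computed for 130 results. Of these 1284 stayed within the counting interval of the main value, 225 moved out of it and 1 was counted as reversed. That was Mllt1 in granulocyte progenitor-like cells, Skida1-deleted over MLL-ENL, at 1.24 with a marker score per cell against 0.451, where 9 of 11 alternatives still passed 1.5-fold lower. Its cause was not tested. Other ratios, nearer to 1, also changed side of 1 without being counted as reversed. Among them were Mllt3 for the deletion and Dot1l against Control, both given below. The count of members at least 1.5-fold higher in HSPC-like MLL-ENL cells than in Control was 0 in place of 1 with each library clustered on its own (Aff4 at 1.40), without low-depth clusters (Aff4 at 1.29) and at a threshold of 2. The count of lower members was 1 in place of 0 without low-depth clusters (Mllt3 at 0.284) and with G1 cells only (Mllt3 at 0.529). It was 3 at the lowest threshold tried, which lay below 1.5-fold. For the deletion the higher count was 1 in place of 0 at that lowest threshold. The lower count was 1 in place of 0 with each library clustered on its own (Mllt3 at 0.586). The shares of all genes given above are for 1.5-fold in the main setting only. These counts at other thresholds and settings therefore cannot be set against all genes. Mllt3 for the deletion ranged from 0.586 to 1.21, below 1 in 12 of 14 (1.21 with the strict cell filter and 1.05 without low-depth clusters). Dot1l against Control was at 1.02 with G1 cells only. In 13 of 13 alternatives Aff4 stayed above 1 and Men1 and Mllt3 below 1 in HSPC-like MLL-ENL cells against Control, but the interval included 1 for Men1 with cells thinned (0.834) and for Mllt3 with cells thinned (0.854), at resolution 1.5 (0.932) and with no doublets removed (0.940). Settings that clustered anew or left out clusters also changed which cells were compared, as given above. Mllt10 for the deletion was above 1 in 14 of 14. Men1 passed 1.5-fold lower in 10 of 10 alternatives in basophil-mast-like cells, 11 of 12 in megakaryocyte-like cells and 5 of 10 in granulocyte progenitor-like cells. The strict cell filter left too few HSPC-like Control cells for a value against Control. No paired analysis was possible because each group has 1 library. Depth limits Mllt1, Ell and Men1 outside the HSPC-like and erythroid-like classes, where they rest on 23 to 211 UMIs per library.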

Other observations

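In the B-lineage-like cells, too few to be compared above (98 Skida1-deleted, 91 MLL-ENL and 45 Control cells), Kmt2a and Aff1 had higher values than in the 5 larger classes, though in Control the Kmt2a interval overlapped those of megakaryocyte-like and HSPC-like cells. Kmt2a was at 305 CPM [251–367] in the Skida1-deleted library, 263 CPM [220–310] in MLL-ENL and 148 CPM [110–196] in Control, from 111, 137 and 49 UMIs. Aff1, whose human counterpart is the usual MLL partner in infant B-lineage leukaemia, was at 148 CPM [112–194], 109 CPM [82.7–142] and 87.7 CPM [58.7–126] in the same order. Mllt3 had 3, 0 and 2 UMIs there. Those cells were shallow, with 3712, 5734 and 7352 UMIs per cell. In eosinophil-like cells (31, 23 and 20 cells) Aff1 was at 95.6 CPM [65.4–135] in the Skida1-deleted library, 118 CPM [78.1–172] in MLL-ENL and 72.9 CPM [45.7–110] in Control.

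Over 15 profiles of 3 libraries and 5 classes, among 5635 genes, those most alike to each member by Pearson's r of log2(CPM + 1) were Ctla2a (0.972) and Fam13b (0.967) for Kmt2a, Zfp277 (0.926) and Rtf2 (0.912) for Men1, and Metap1d (0.965) and Gabpb2 (0.951) for Psip1. For Mllt1 they were Ythdf2 (0.909) and Senp1 (0.768), for Mllt3 Xrcc5 (0.967) and Pck2 (0.953), for Aff1 Hdc (0.966) and Vat1 (0.956), and for Aff4 Nub1 (0.982) and Rnf6 (0.959). For Ell they were Trim8 (0.933) and Tcf12 (0.922), for Dot1l Mios (0.937) and Ccdc32 (0.933), and for Mllt10 Cmip (0.902) and Arrdc1 (0.895). Among the members themselves Psip1 and Mllt3 were the most alike pair (0.930), and Aff1 and Dot1l the most opposed (−0.79). The profiles share libraries and depth, so these are descriptions.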
